A study of Mus musculus with 8 samples.

Results

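Transforming growth factor beta (TGF-beta) is a secreted signal whose 3 ligands, 3 receptors, 2 latency proteins and 2 response genes were followed here in ovarian neoplasia and in wildtype ovary of the mouse. These 10 genes (Tgfb1, Tgfb2, Tgfb3, Tgfbr1, Tgfbr2, Tgfbr3, Ltbp1, Ltbp2, Smad7 and Tgfbi) were chosen by name. Their probes were taken as every non-control probe whose accession belongs to one of them, which gave 13 of the 55681 distinct probes on the array. Tgfb2, Tgfbr1 and Tgfbr2 had 2 probes each, and the other members had 1. All 13 were well above background on all 8 arrays, so that no member was lost to the filter on dim probes.

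Neoplasia was measured on 5 arrays and wildtype ovary on 3, from mice of 33 weeks whose ovaries were taken while they were cycling. The neoplasia mice carried Pgrcre/+ and 1 allele that the labels write as mPgrLsL/+ and the series' design as PgrBLsL/+. The cre sits at the gene of the progesterone receptor (Pgr), so recombination is limited to cells that have used that gene. An LsL allele is silent until Cre removes its stop cassette. Whole tissue was taken, and the genotype of the other mice is given only as Wildtype, with no cre or LsL allele named. The comparison asked how the RNA of the neoplasia differs from that of the normal ovary. The labels do not say that each array is a separate animal, so the spread behind the p-values is that between these samples and may be technical.

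TGF-beta ligands are made as precursors, cut by furin, and released in a latent form that is bound to a latency protein of the LTBP family and held in the extracellular matrix. Freed ligand binds the type II receptor (Tgfbr2), which recruits and activates the type I receptor (Tgfbr1), and betaglycan (Tgfbr3) presents ligand to them. The type I receptor phosphorylates SMAD proteins, which enter the nucleus and change transcription. In the ovary this pathway acts between the oocyte, granulosa cells and theca cells during follicle growth, and in tumours it is known for both growth arrest and matrix formation.

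The 75th percentile of signal was 307 to 426 on the neoplasia arrays and 460 to 515 on the wildtype arrays. All levels below are multiples of that percentile on their own array, called relative signal, and all differences are neoplasia minus wildtype on the log2 scale. Between pairs of arrays, the SD of log2 differences over tested probes was 0.91 to 1.36 within the neoplasias and 0.49 to 0.81 within the wildtype ovaries. Of 25215 tested features, 30.4% differed between the groups at an adjusted p below 0.05 (limma with Benjamini-Hochberg adjustment). The median difference with its sign was 0.14, and the median size of a difference without regard to sign was 0.64. In the neoplasia, all 7 oocyte markers, all 6 luteal markers and 6 of 7 granulosa markers fell, and the seventh, Foxl2, differed by 0.43 (limma adjusted p = 0.113). Of these markers, Fshr, Cyp19a1, Amh, Lhcgr, Ptgfr, Zp1, Zp2, Bmp15, Padi6 and Zar1 were above background on 0 of 5 neoplasia arrays and 3 of 3 wildtype arrays. The rest were still detected in neoplasia: Gdf9, Star, Cyp11a1, Hsd3b1, Akr1c18, Inhba and Foxl2 on 5 of 5 arrays. Inha was above background on 4 of them, Zp3 on 3 and Hsd17b1 on 1. In bulk tissue, fewer cells of a type and less RNA per cell cannot be told apart.

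Of the 10 members, 2 rose, 2 fell and 6 did not pass the test, so 4 of 10 changed beside 30.4% of all features. The ligand Tgfb1 and the receptor Tgfbr2 rose, and the latency protein Ltbp1 and the matrix protein Tgfbi fell. The same 4 were the members whose groups did not overlap, beside 39.0% of all features. For rises alone, 17.0% of features passed and 23.1% had groups apart, and for falls alone 13.4% and 15.9%. The median difference over the 10 members was -0.10.

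**Figure D1:**
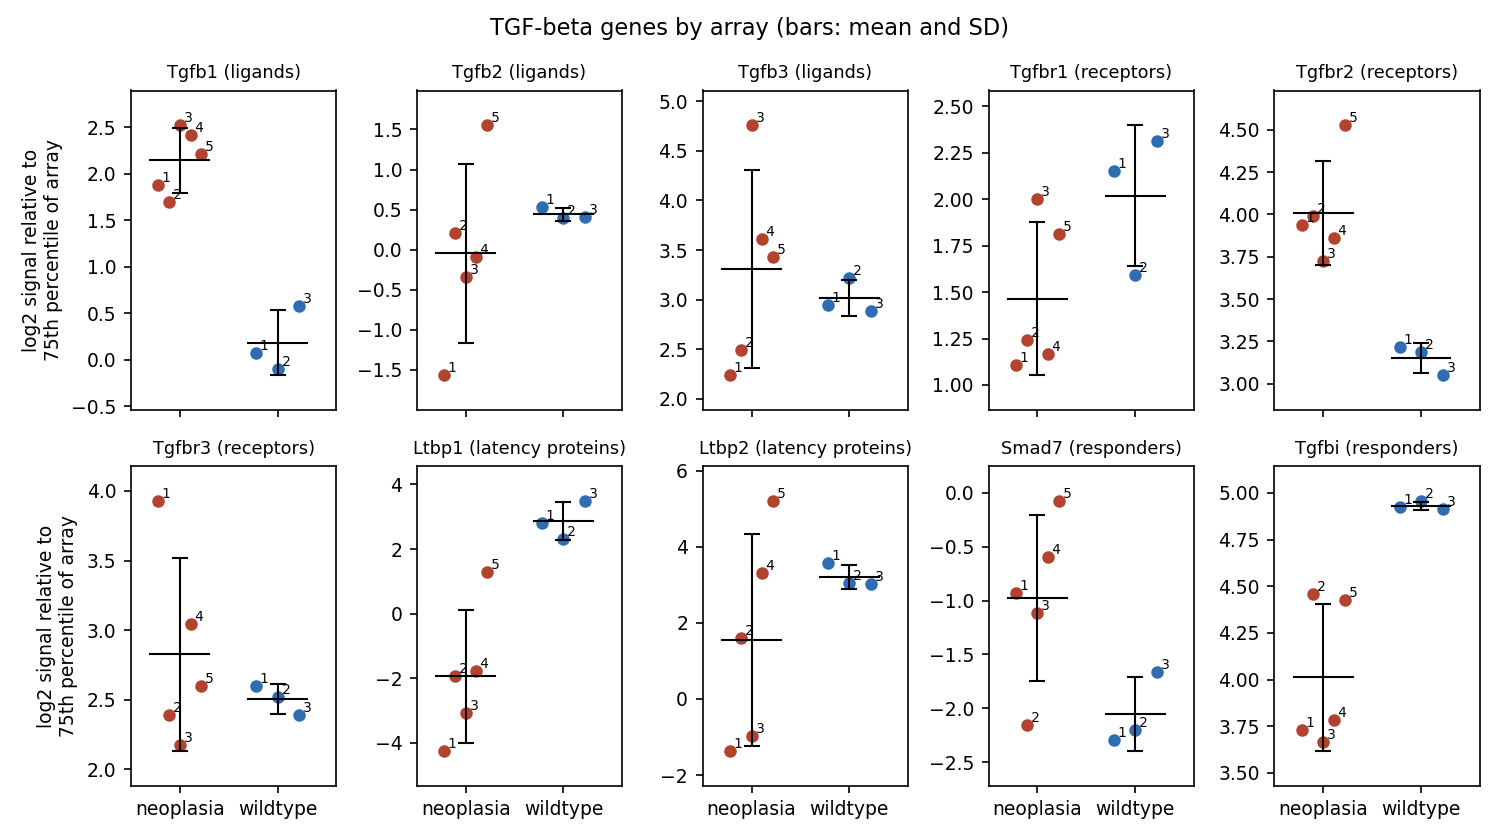
Relative signal (log2, vertical axis) of the probe that stands for each of the 10 genes on every array, with neoplasia left of wildtype, numbers giving the replicate and bars the mean and SD. Groups are apart for Tgfb1, Tgfbr2, Ltbp1 and Tgfbi, and the neoplasia arrays are spread most widely for Ltbp2 and Ltbp1.

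Tgfb1, the ligand best known from immune cells, platelets and fibrosis, was the member with the clearest rise. Its relative signal was 3.68, 3.23, 5.73, 5.35 and 4.62 in neoplasia 1 to 5, against 1.06, 0.938 and 1.49 in wildtype 1 to 3. Every neoplasia lay above every wildtype ovary. The difference was 1.96 ± 0.26 (SE), or 3.88-fold (limma adjusted p = 0.00181), with a 95% interval of 1.35 to 2.56. The probe was printed in 10 spots per array, of which 8 to 10 were used, and their SD on an array was 0.042 to 0.092 on the log2 scale. That is smaller than the SD of 0.35 within each group. Tgfb1 kept its call when any 1 array was left out, with differences of 1.82 to 2.15, and lost it with spike-in scaling, at 1.35 (limma adjusted p = 0.0605).

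Tgfb2, a ligand with a role in organ development, did not pass the test. The brighter of its probes (A_65_P10913) gave relative signals of 0.338, 1.15, 0.790, 0.942 and 2.93 in neoplasia 1 to 5, against 1.45, 1.31 and 1.32 in wildtype 1 to 3. Neoplasia 5 lay above the wildtype ovaries and the other 4 below them, while the wildtype arrays were nearly equal. The difference was -0.49 ± 0.59 (SE), with a 95% interval of -1.83 to 0.85 (limma adjusted p = 0.543). The second probe (A_51_P317640) put the arrays in the same pattern, with neoplasia 5 highest at 1.05 and neoplasia 1 lowest at 0.118, and differed by -0.63 ± 0.62 (SE).

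Tgfb3, the third ligand, was unevenly spread among the neoplasias. Its relative signal was 4.74, 5.65, 27.0, 12.2 and 10.8 in neoplasia 1 to 5, against 7.72, 9.32 and 7.37 in wildtype 1 to 3. Neoplasia 1 and 2 lay below the wildtype ovaries and neoplasia 3, 4 and 5 above them. The difference of 0.29 ± 0.53 (SE) did not pass (limma adjusted p = 0.697, 95% interval -0.93 to 1.5). Repeat spots of this probe differed by an SD of 0.041 to 0.088 on an array, against a log2 range of 2.51 among the neoplasias. Quantile normalization and spike-in scaling turned its sign, to -0.11 and -0.32.

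Tgfb1 differed more between the groups than Tgfb3, whose own difference did not pass. Within each array the log2 signal of Tgfb1 minus that of Tgfb3 was higher in 5 of 5 neoplasias than in any wildtype ovary, and the groups differed by 1.67 (exact permutation test over 56 splits, two-sided, p = 0.0179, adjusted p = 0.0417 over 7 pairs). A p of 0.0179 is the smallest that 56 splits allow. Tgfb1 against Tgfb2 differed by 2.45, also in 5 of 5 neoplasias, but missed the threshold after adjustment (exact permutation p = 0.0357, adjusted p = 0.0625). Tgfb3 and Tgfb2 did not separate, with a difference of 0.78 between their changes (exact permutation p = 0.375, adjusted p = 0.375). These pairs were chosen after the values had been seen, and a factor that scales a whole array cancels in such a difference.

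The start regions of Tgfb1 and Tgfb2 are shown because they are the ligands with a window in the promoter table and their differences had opposite signs. Each is the 250 bases before an annotated start in RefSeq on GRCm38.p6, written 5′ to 3′ on the gene's strand. They lie at chr7:25686752-25687001 (plus strand) for Tgfb1 and chr1:186705990-186706239 (minus strand) for Tgfb2. The Tgfb2 window lies inside the span of its gene, which reaches to 186709697, and which start its probes report is not stated. Capitals mark the core of the SMAD box, searched as CAGAC on both strands, and the TATA box, whose letters are given after the sequences.
Tgfb1: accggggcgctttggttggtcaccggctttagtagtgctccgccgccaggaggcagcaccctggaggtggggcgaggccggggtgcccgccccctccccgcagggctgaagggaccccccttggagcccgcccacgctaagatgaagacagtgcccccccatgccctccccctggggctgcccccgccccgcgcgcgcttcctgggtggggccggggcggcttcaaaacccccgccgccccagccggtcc
Tgfb2: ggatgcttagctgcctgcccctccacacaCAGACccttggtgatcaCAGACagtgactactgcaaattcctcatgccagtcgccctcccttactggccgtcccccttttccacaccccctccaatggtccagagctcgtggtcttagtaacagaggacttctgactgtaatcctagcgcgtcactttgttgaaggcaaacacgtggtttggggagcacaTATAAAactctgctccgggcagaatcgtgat
The Tgfb1 window held neither motif and was 75.2% G and C, against a median of 52.4% over 32851 promoters. The Tgfb2 window had a TATAAA 31 bases before the start, CAGAC at 204 and 221 bases before it, and 53.6% G and C. Of all promoters, 42.2% hold a SMAD box core on either strand and 12.4% hold TATAAA on either strand. A match describes letters only.

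Tgfbr2, the receptor that binds ligand first, rose on both of its probes. On the brighter probe (A_51_P450573) relative signal was 15.3, 15.9, 13.2, 14.5 and 23.0 in neoplasia 1 to 5, against 9.30, 9.10 and 8.30 in wildtype 1 to 3. All neoplasias lay above all wildtype ovaries, and the difference was 0.86 ± 0.22 (SE), or 1.81-fold (limma adjusted p = 0.0227). On the dimmer probe (A_55_P2107288) it was 0.537, 0.557, 0.497, 0.570 and 0.844 in neoplasia 1 to 5, against 0.209, 0.256 and 0.204 in wildtype 1 to 3. That probe differed by 1.41 ± 0.23 (SE), or 2.66-fold (limma adjusted p = 0.00374 with each probe as a feature, where 29.2% of probes passed). The size depended on the scaling of the arrays. The bright probe differed by 0.42 with quantile normalization (limma adjusted p = 0.240, each probe a feature here) and by 0.25 with spike-in scaling (limma adjusted p = 0.812), and the dim probe by 1.57 (limma adjusted p = 0.00189) and 0.80 (limma adjusted p = 0.301). The call on the bright probe was also lost without wildtype 1, 2 or 3 (largest limma adjusted p = 0.0807).

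Tgfbr1, the kinase partner of Tgfbr2, did not pass on either probe. Its brighter probe (A_55_P2137206) had relative signals of 2.15, 2.36, 4.0, 2.25 and 3.51 in neoplasia 1 to 5, against 4.44, 3.01 and 4.97 in wildtype 1 to 3. The groups overlapped through neoplasia 3 and 5 and wildtype 2, and the difference was -0.55 ± 0.29 (SE), with a 95% interval of -1.22 to 0.11 (limma adjusted p = 0.173). The dimmer probe differed by -0.18 ± 0.36 (SE). The change of Tgfbr2 was higher than that of Tgfbr1 within each array, by 1.41 and in 5 of 5 neoplasias (exact permutation p = 0.0179, adjusted p = 0.0417 over 7 pairs). This pair was also chosen after the values had been seen.

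Tgfbr3, betaglycan, which also serves as a co-receptor of inhibin in the gonad, did not pass. Relative signal was 15.2, 5.25, 4.51, 8.24 and 6.06 in neoplasia 1 to 5, against 6.07, 5.75 and 5.23 in wildtype 1 to 3. Neoplasia 1 and 4 were above the wildtype range, neoplasia 2 and 5 within it and neoplasia 3 below it. The difference was 0.32 ± 0.38 (SE), with a 95% interval of -0.56 to 1.20 (limma adjusted p = 0.540), and quantile normalization and spike-in scaling turned its sign, to -0.03 and -0.29. Neither Tgfbr2 nor Tgfbr1 separated from Tgfbr3 in its change (exact permutation adjusted p = 0.354 for each pair).

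The window before the start of Tgfbr2 is given because both of its probes rose. It lies at chr9:116175364-116175613 (minus strand) of the same build, held CAGAC at 160 bases before the start, in capitals, and was 58.4% G and C.
Tgfbr2: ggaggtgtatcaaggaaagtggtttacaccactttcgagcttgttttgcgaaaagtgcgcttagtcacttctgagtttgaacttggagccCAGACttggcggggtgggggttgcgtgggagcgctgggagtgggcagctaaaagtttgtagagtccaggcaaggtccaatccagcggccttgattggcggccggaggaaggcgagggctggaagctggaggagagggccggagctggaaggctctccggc

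**Figure D2:**
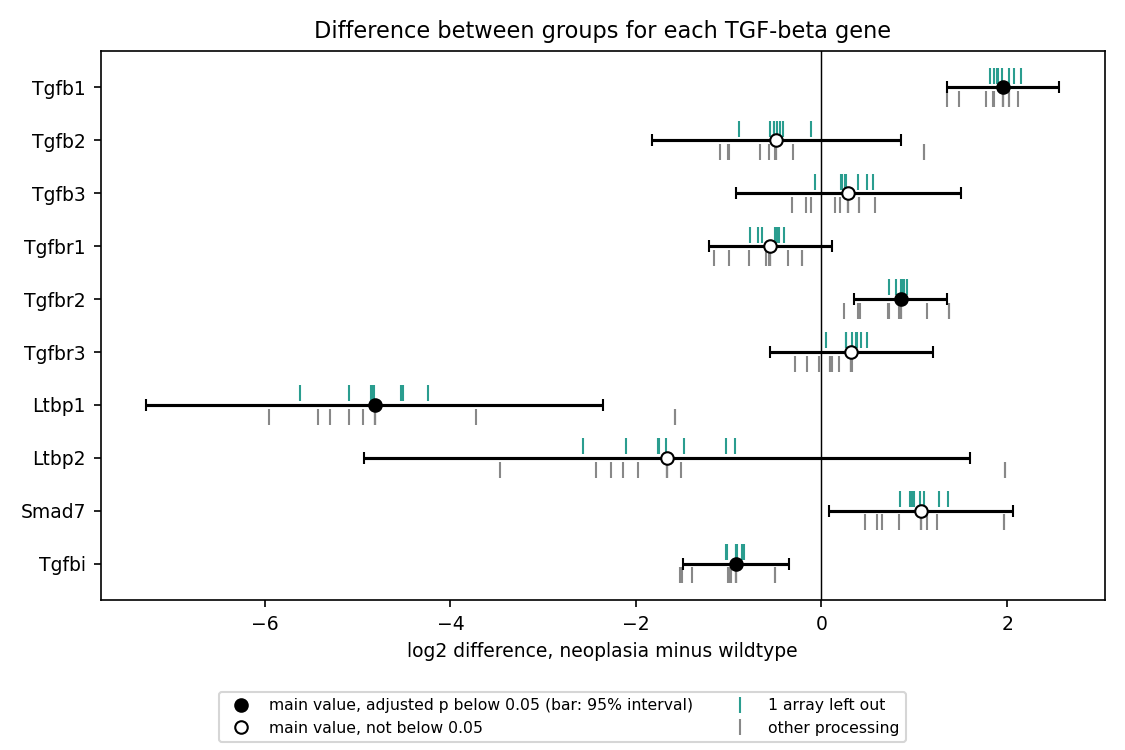
Log2 difference (neoplasia minus wildtype, horizontal axis) of each gene with its 95% interval, filled where the adjusted p was below 0.05. Short green marks are values with 1 array left out and grey marks other processing, and the intervals of Tgfb1, Tgfbr2, Ltbp1 and Tgfbi stay on one side of 0, as does that of Smad7, which did not pass after adjustment.

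Ltbp1, which tethers latent TGF-beta in the matrix, had the largest difference of the 10 members. Relative signal was 0.0529, 0.264, 0.118, 0.295 and 2.45 in neoplasia 1 to 5, against 7.06, 5.0 and 11.1 in wildtype 1 to 3. All neoplasias lay below all wildtype ovaries, and neoplasia 5 stood nearest to them. The difference was -4.81 ± 1.08 (SE), or 28.1-fold lower (limma adjusted p = 0.0143), with a 95% interval of -7.28 to -2.35. Before scaling, the signal was 16.2, 113, 42.6, 99.3 and 874 in neoplasia 1 to 5, against 3608, 2575 and 5121 in wildtype 1 to 3. The call was lost without wildtype 1 or 3 (largest limma adjusted p = 0.0562), while the difference stayed between -5.62 and -4.24 with any 1 array left out.

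Ltbp2, its relative in elastic fibres, which does not bind latent TGF-beta covalently, differed more among neoplasias than between groups. Its relative signal was 0.389, 3.02, 0.504, 9.90 and 36.6 in neoplasia 1 to 5, against 11.9, 8.24 and 8.12 in wildtype 1 to 3. Neoplasia 1, 2 and 3 were below the wildtype ovaries, neoplasia 4 lay among them and neoplasia 5 above them. The log2 range was 6.56 over the neoplasias and 0.55 over the wildtype ovaries. The difference was -1.66 ± 1.43 (SE) and did not pass (limma adjusted p = 0.391, 95% interval -4.93 to 1.6). Within each array the log2 signal of Ltbp2 minus that of Ltbp1 was higher in 5 of 5 neoplasias than in any wildtype ovary. The 2 changes differed by 3.15 (exact permutation p = 0.0179, adjusted p = 0.0417 over 7 pairs), and this pair too was chosen after the values had been seen.

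The windows of these latency genes are given as they are a pair whose changes differed. They lie at chr17:75005279-75005528 (plus strand) for Ltbp1 and chr12:84876492-84876741 (minus strand) for Ltbp2 in the same build. Ltbp1 has 2 annotated starts and the first is shown, and which of them the probe reports is not stated.
Ltbp1: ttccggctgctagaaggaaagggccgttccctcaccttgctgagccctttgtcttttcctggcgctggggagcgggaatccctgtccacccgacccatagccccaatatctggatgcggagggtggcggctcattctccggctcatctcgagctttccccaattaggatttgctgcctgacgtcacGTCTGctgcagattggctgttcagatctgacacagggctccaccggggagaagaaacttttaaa
Ltbp2: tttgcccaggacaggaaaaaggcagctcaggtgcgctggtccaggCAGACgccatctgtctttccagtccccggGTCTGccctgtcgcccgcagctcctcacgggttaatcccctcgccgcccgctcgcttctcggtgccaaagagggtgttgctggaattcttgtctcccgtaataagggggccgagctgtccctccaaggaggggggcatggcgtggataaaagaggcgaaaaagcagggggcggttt
Ltbp1 held the SMAD box core at 64 bases before its start, and Ltbp2 at 176 and 205 bases before it.

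Tgfbi, a secreted matrix protein named for its induction by TGF-beta, fell. Relative signal was 13.3, 22, 12.7, 13.8 and 21.5 in neoplasia 1 to 5, against 30.3, 31.0 and 30.1 in wildtype 1 to 3. The wildtype ovaries were within 0.04 of each other on the log2 scale, and every neoplasia was lower. The difference was -0.92 ± 0.25 (SE), or 1.89-fold lower (limma adjusted p = 0.0280), with a 95% interval of -1.49 to -0.35. The call was lost without neoplasia 3 or 4 or wildtype 1, 2 or 3 (largest limma adjusted p = 0.0989).

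The window before Tgfbi, at chr13:56609336-56609585 (plus strand) in the same build, is shown because Tgfbi is the responder that changed.
Tgfbi: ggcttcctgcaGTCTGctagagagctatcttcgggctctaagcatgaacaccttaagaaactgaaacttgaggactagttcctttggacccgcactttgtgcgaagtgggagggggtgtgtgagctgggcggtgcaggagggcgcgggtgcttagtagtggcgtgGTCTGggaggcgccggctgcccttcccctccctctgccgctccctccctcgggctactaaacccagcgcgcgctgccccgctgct
It held the SMAD box core at 85 and 239 bases before the start and was 62.4% G and C.
Windows were found for 7 of the 10 members. None of the windows of the 7 held an AP-1 site (TGANTCA) or a full palindromic progesterone receptor site, which 6.75% and 0.387% of all promoters hold on either strand.

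Smad7, an inhibitory SMAD that TGF-beta induces and that shuts off the type I receptor, was higher in 4 of 5 neoplasias than in any wildtype ovary. Relative signal was 0.523, 0.224, 0.462, 0.660 and 0.945 in neoplasia 1 to 5, against 0.204, 0.218 and 0.317 in wildtype 1 to 3. Neoplasia 2 lay within the wildtype range. The difference of 1.07 ± 0.43 (SE), with a 95% interval of 0.08 to 2.07, did not pass after adjustment (limma adjusted p = 0.0916). With any 1 array left out it was 0.85 to 1.37 (largest limma adjusted p = 0.248), and without neoplasia 2 it was 1.37 (limma adjusted p = 0.0185). Quantile normalization gave 1.24 and spike-in scaling 0.47 (limma adjusted p = 0.0614 and 0.647).

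Neoplasia 5 had the highest level of 5 of the 10 members among the neoplasias: Tgfb2, Tgfbr2, Ltbp1, Ltbp2 and Smad7. Neoplasia 3 was highest for Tgfb1, Tgfb3 and Tgfbr1, neoplasia 1 for Tgfbr3 and neoplasia 2 for Tgfbi. The array of neoplasia 5 shared a slide row with the 3 wildtype arrays, and neoplasia 1 to 4 lay in the other row. The p-values that follow are from a fit with slide row as a block and from that row alone, which give the same differences. The difference was 2.02 for Tgfb1 (limma adjusted p = 0.0389 and 0.0271) and 1.37 for Tgfbr2 (0.0217 and 0.0194). It was -1.58 for Ltbp1 (limma adjusted p = 0.364 and 0.101) and -0.50 for Tgfbi (0.426 and 0.117), so neither fall was called. Tgfb2 differed by 1.11 (limma adjusted p = 0.328 and 0.0280), Ltbp2 by 1.98 (0.511 and 0.0246) and Smad7 by 1.97 (0.0985 and 0.0280), so that these passed in the row alone but not with the block. In both fits the size of a difference rests on 1 neoplasia, and the row alone holds no spread between neoplasias, so the slide row cannot be told apart from neoplasia 5.

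Cell type markers also differed between the groups and among the neoplasias. The summed relative signal of 5 fibroblast markers was 4.76, 6.55, 17.0, 8.15 and 47.1 in neoplasia 1 to 5, against 39.6 to 49.5 in the wildtype ovaries, and 1 of the 5 fell. That of 4 smooth muscle markers was 1.23 to 22.7 over the neoplasias, highest in neoplasia 5, against 19.5 to 103 over the wildtype ovaries, and 1 of the 4 fell. Neoplasia 5 had the highest sum of the neoplasias for 7 of 12 marker lists, which were fibroblast, smooth muscle, endothelium, erythrocyte, platelet and neutrophil, granulosa and theca. The theca sum was 3.55 in neoplasia 5 and 2.92 to 3.22 in the other neoplasias. Within the granulosa list Foxl2 was highest in neoplasia 1. Inhba lay at 4.43 on the log2 scale in neoplasia 5, against -4.84 to -0.12 in the other neoplasias. Beside the rise of Tgfb1, 6 of 8 macrophage markers rose. Their list summed to 104, 173, 91.6, 88.1 and 114 in neoplasia 1 to 5, against 47.4 to 52.1 in the wildtype ovaries. Among the neoplasias this sum was highest in neoplasia 2, where Tgfb1 was lowest. Platelet and neutrophil markers rose in 4 of 6 cases. Their list summed to 17.1, 7.08, 30.1, 23.1 and 60.6 in neoplasia 1 to 5, against 3.14 to 4.0 in the wildtype ovaries. That sum was lowest in neoplasia 2, as Tgfb1 was, and highest in neoplasia 5, whereas Tgfb1 was highest in neoplasia 3. The platelet genes Ppbp and Gp9 were above background on 5 of 5 neoplasia arrays and on 0 of 3 wildtype arrays. All 4 erythrocyte markers rose, with sums of 379 to 1726 in the neoplasias, against 9.09 to 27.1 in the wildtype ovaries. Of 8 epithelial markers, 2 rose (Krt8 at 4.01 and Krt18 at 3.52) and 2 fell (Epcam at -3.76 and Cdh1 at -3.17). Epcam was above background on 2 of 5 neoplasia arrays and Cdh1 on 3. The list summed to 182 to 771 in the neoplasias, against 16.7 to 76.0 in the wildtype ovaries. That sum was mainly Krt18, whose mean log2 signal in neoplasia was 7.96, against -4.89 for Epcam and -3.94 for Cdh1. Of 4 theca markers, 3 fell. Over all features 17.0% rose and 13.4% fell, and the counts of these lists are to be read beside those shares. T cell markers rose in 2 of 5 cases and endothelial markers in 2 of 7. The part of these cells in the changes of the members was not tested.

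**Figure D3:**
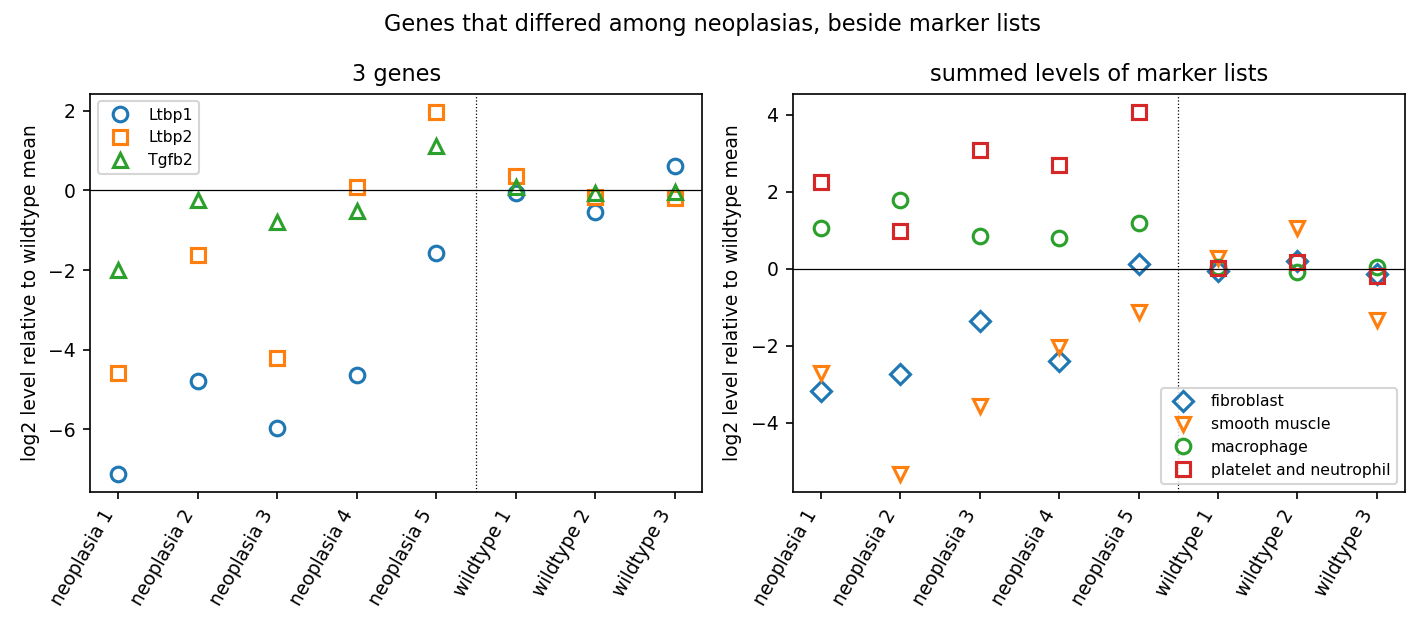
Log2 level relative to the wildtype mean (vertical axis) on each array, for Ltbp1, Ltbp2 and Tgfb2 on the left and for summed marker lists on the right. Neoplasia 5 is highest of the neoplasias for all 3 genes and for the fibroblast and smooth muscle lists, while the macrophage and the platelet and neutrophil lists are above 0 in all 5 neoplasias.

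The other genes of the pathway were read from 4 lists of 58 genes, of which 54 were tested. In all, 12 rose, 6 fell and 36 did not pass, so 18 of 54 changed beside 30.4% of all features, and their median difference was -0.14. Itgb6, Itgb8, Bambi and Tgfb1i1 were not tested, the first 3 because their probes were too dim and the last because no probe matched.

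Among genes that hold or free latent ligand, 3 of 9 rose and 0 fell, beside 17.0% and 13.4% of all features. Their median was 0.55. Lrrc32 (GARP), which anchors latent TGF-beta on regulatory T cells, platelets and endothelium, had relative signals of 12.6, 6.17, 11.8, 18.4 and 14.3 in neoplasia 1 to 5, against 3.16, 3.09 and 2.93 in wildtype 1 to 3. It rose by 1.96 ± 0.33 (SE; limma adjusted p = 0.00480) and kept its call when any 1 array was left out. Furin, the protease that cuts the ligand precursor, rose by 1.29 ± 0.39 (SE), and Nrros, which holds latent ligand on myeloid cells, rose by 1.12 ± 0.33 (SE). Both lost the call without any 1 wildtype array, Furin also without neoplasia 3 or 4 and Nrros without neoplasia 2 (largest limma adjusted p = 0.125 and 0.117). Ltbp4 and Ltbp3, the other latency proteins, differed by -1.85 ± 0.64 and 0.21 ± 0.23 (SE) and did not pass (limma adjusted p = 0.0587 and 0.522). The integrin subunit Itgav, a part of receptors that free latent ligand, differed by 0.55 ± 0.30 (SE; limma adjusted p = 0.183).

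Of 9 tested accessory receptors and signal carriers, 1 rose and 1 fell, beside 17.0% and 13.4% of all features. Their median was -0.15. Cd109, a membrane co-receptor known to dampen the signal, rose by 2.31 ± 0.50 (SE; limma adjusted p = 0.0127) and lost its call without wildtype 1 or 2. Zfyve9 (SARA), which presents SMADs to the receptor, fell by 1.35 on the log2 scale (limma adjusted p = 0.0181) and lost its call without any 1 wildtype array. Of the SMADs that carry the signal, Smad2 differed by -0.52 ± 0.23, Smad3 by -0.21 ± 0.22 and Smad4 by 0.34 ± 0.18 (SE), and none passed (limma adjusted p = 0.112, 0.490 and 0.181).

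Among 12 tested inhibitors and feedback genes, 1 rose and 3 fell, beside 17.0% and 13.4% of all features. Their median was -0.40. Vasn (vasorin), which traps TGF-beta outside the cell, rose by 1.33 ± 0.33 (SE; limma adjusted p = 0.0211). The SMAD corepressors Tgif2, Ski and Tgif1 fell by 2.28, 1.05 and 0.98 (limma adjusted p = 0.0324, 0.0417 and 0.0466), and Tgif2 was above background on 4 of 5 neoplasia arrays. All 4 lost their call without any 1 wildtype array, Tgif2 also without neoplasia 3, Ski without neoplasia 1, 2 or 4, and Tgif1 without neoplasia 1, 2, 3 or 4. Dcn (decorin), a matrix proteoglycan that binds the ligand, differed by -3.94 ± 1.52 (SE; limma adjusted p = 0.0807), and its relative signal was 0.446 to 9.77 in neoplasia 1 to 4 and 138 in neoplasia 5, against 69.9 to 134 in the wildtype ovaries. The SMAD target Pmepa1 and the inhibitory Smad6 differed by -0.49 ± 0.45 and 0.67 ± 0.68 (SE; limma adjusted p = 0.429 and 0.469).

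Of 24 genes known to be induced by TGF-beta in various cells, 7 rose, 2 fell and 15 did not pass, with a median of 0.20. Over all features, 17.0% rose and 13.4% fell, or 30.4% in either direction. Fn1 (fibronectin), a matrix glycoprotein, had relative signals of 423, 314, 524, 409 and 256 in neoplasia 1 to 5, against 17.6, 29.5 and 21.2 in wildtype 1 to 3. Every neoplasia lay above every wildtype ovary, and the difference was 4.07 ± 0.29 (SE), or 16.8-fold (limma adjusted p = 6.79e-05).

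Cdkn1a, a cell cycle inhibitor, Sphk1, a sphingosine kinase, and Junb, an AP-1 subunit, rose by 3.89 ± 0.27, 3.30 ± 0.42 and 2.37 ± 0.30 (SE; limma adjusted p at most 0.00146). Many other signals induce these genes too. Snai2, a repressor known from epithelial-mesenchymal transition, fell by 2.52 on the log2 scale (limma adjusted p = 0.0126) and lost its call without wildtype 1. Timp1 (a protease inhibitor, 1.47), Id1 (1.26) and Tsc22d1 (-1.90) also passed, and were named after their values were seen. Timp1 lost its call without neoplasia 2, 3 or 4 or any 1 wildtype array, and Id1 without any 1 wildtype array. Of the induced targets named here, Fn1, Cdkn1a, Sphk1, Junb and Tsc22d1 kept the call when any 1 array was left out.

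Genes of contractile fibres and matrix were among those that did not pass, and neoplasia 5 was the highest neoplasia for each one named here. Acta2 (smooth muscle actin) was at 2.55 to 15.8 in neoplasia 1 to 4 and 49.3 in neoplasia 5, against 41.6 to 89.0 in the wildtype ovaries (limma adjusted p = 0.0518). Col1a1, a collagen chain, was at 3.37 to 40.1 in neoplasia 1 to 4 and 95.9 in neoplasia 5, against 17.6 to 27.8 in the wildtype ovaries (limma adjusted p = 0.761). Ccn2, a matricellular target, was at 4.48 to 14.3 in neoplasia 1 to 4 and 47.9 in neoplasia 5, against 6.43 to 10.4 in the wildtype ovaries (limma adjusted p = 0.466).

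**Figure D4:**
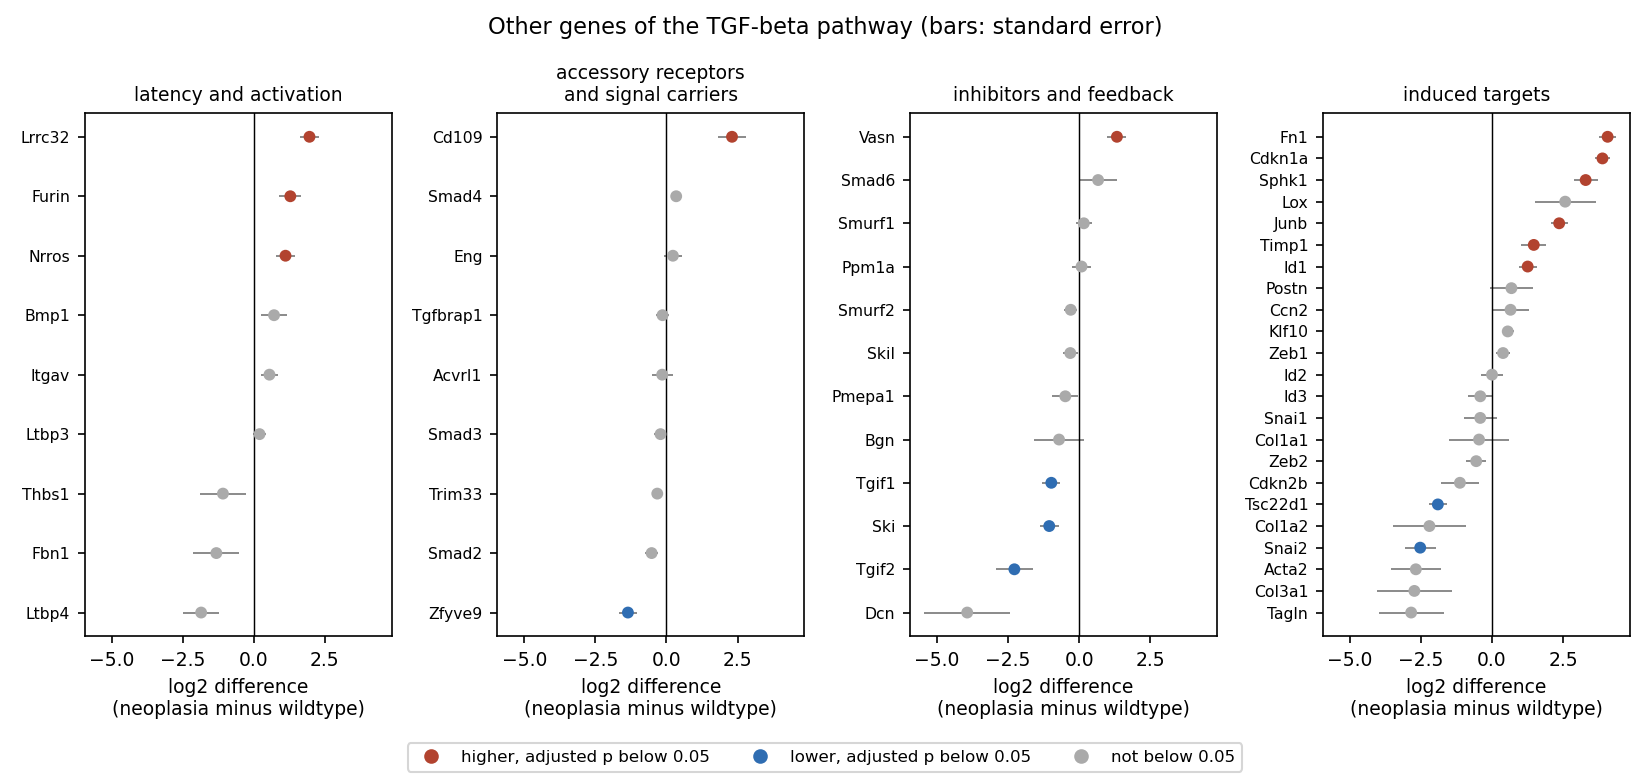
Log2 difference (neoplasia minus wildtype, horizontal axis) with its standard error for 53 of the 54 tested genes of 4 pathway lists, coloured where the adjusted p was below 0.05. Fn1 at 4.07 is the largest rise drawn, and Dcn at -3.94, which did not pass, is the lowest value drawn.

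The genes whose profile over the 8 arrays lay nearest to each ligand were found by the root mean square difference of log2 values centred on each gene's own mean. For Tgfb1 they were Asns, Col18a1 and Chpf2, at 0.18, 0.20 and 0.21. For Tgfb2 they were Panx1, Hectd2 and Man1c1, at 0.17, 0.24 and 0.24. For Tgfb3 they were Osbpl9, Phf21b and Pdia5, at 0.26, 0.26 and 0.29. With 8 arrays and 7671 features that differed between the groups, such closeness is a description only.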

How the data were processed

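RNA of whole ovary or neoplasm was labelled with 1 dye and hybridised to Agilent mouse arrays, 1 array a sample. Each deposited scanner file holds the intensity of a spot, linear, corrected for background and for spatial trend by the scanner's software, which the file headers name as Feature Extraction 11.0.1.1, but not brought to a common level across arrays. The authors' deposited table holds log2 values. Set against the scanner files, it equalled log2 of the average processed intensity of all spots sharing a feature name to within 0.001, so those values are not centred or scaled. Partek is listed in the submitters' processing notes, with no step given for it.

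Each spot's processed intensity was divided by the 75th percentile of its array and taken to log2, without controls or spots flagged as outliers (14 readings for the member probes), and repeats of a probe were averaged. Only probes called well above background on 3 or more arrays entered the tests. A gene is represented by its brightest probe, and other probes are given beside it. Unversioned accessions were looked up in RefSeq (GRCm38.p6), which gave a name to 26582 of 55681 probes. The files' own grid is on mm9, and no probe position was used. No spot was saturated.

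The comparison used limma 3.58.1 under R 4.3.3, two-sided and without covariates, and p-values were adjusted by Benjamini-Hochberg across 25215 features, with 0.05 as the threshold. Within-array differences between related members were put to an exact permutation test of the 56 ways to choose 5 arrays from 8. In simulated data of 25154 genes for this comparison, 200 were changed each time. Of changes of 2 and 4 on the log2 scale, 56.2% and 88.6% were found, and 7.72% and 5.84% of the calls were false. The share changed was far smaller than the 30.4% of features called in the data. The adjustment depends on that share, so these rates need not hold for the data. Precision is limited by the number of arrays, 5 and 3. In each pathway list, up to 6 genes that passed are named by size, and up to 3 that did not, and 3 more induced targets that passed were named after their values were seen. The values of 1 pathway gene are not reported here, and the counts of its list include it. The members and lists were chosen with earlier results of these data known.

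The alternatives tried were normexp (offset 50, on median foreground and background), quantile normalization, scaling to the 6 of 10 spike-in probes above background, no filter on dim probes, a stricter filter, the authors' values, averaging a gene's probes, a trended robust eBayes, array weights, blocks for replicate number or slide row, 1 slide row by itself, and leaving out each array.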

Additional observations from a re-analysis of the deposited data

Results flagged for a closer look

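One value stood apart from the rest of its group. On the dimmer probe of Tgfbr2 (A_55_P2107288), neoplasia 5 lay at -0.24 on the log2 scale, and the nearest other neoplasia lay at -0.81. The gap took 0.744 of the range of the 5 neoplasias, past the critical value of 0.71 for 5 samples. Chance flags about 1 in 20 groups, and 13 probes were examined. All wildtype arrays were lower than the lowest neoplasia on this probe.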

How the results depend on the processing

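The arrays differ in overall signal, and scaling moved the balance of calls. The median log2 difference over all features was 0.14 as reported, 0.22 with normexp, 0.03 with quantile normalization, -0.47 with spike-in scaling and -0.34 with the authors' values. The share of calls that were higher in neoplasia was 56.0%, 66.9%, 50.4%, 15.2% and 19.9% in the same order, 68.3% where all 8 arrays had to be above background and 43.4% with the replicate block. Spike-in scaling gave 4939 changed features, 0 members and 5 pathway genes that rose and 13 pathway genes that fell, and Tgfb1 then differed by 1.35 (limma adjusted p = 0.0605). Quantile normalization left 1 member that rose. The authors' values gave 1 member that rose and 12 pathway genes that fell, and Tgfbr1 then passed at -1.0 (limma adjusted p = 0.0424). Array weights gave 13913 changed features and 13 pathway genes that fell, and Smad7 and Ltbp2 passed at 1.13 and -2.43 (limma adjusted p = 0.0120 and 0.0448). With the slide row as a block there were 1537 changed features, 0 members that fell, and 5 pathway genes that rose and 0 that fell. In slide row 2 alone, which holds 1 neoplasia, 5 members rose and 0 fell, 3 pathway genes fell, and the sign turned for 18 of 64 members and pathway genes, of which 0 had passed in the full comparison and 7 passed with the turned sign, namely Tgfb2 (1.11), Ltbp2 (1.98), Fbn1 (1.21), Thbs1 (1.30), Bgn (2.18), Col1a1 (2.08) and Col1a2 (1.35). The cause of these moves was not tested. Leaving out 1 array gave 2840 to 9998 changed features, 1 to 3 members that rose and 0 to 2 that fell, and 6 to 12 pathway genes that rose and 1 to 15 that fell, with the fewest changed features without wildtype 1 (2840), 2 (3212) or 3 (4075) and the most without neoplasia 5 (9998). Same-numbered arrays had correlations of deviations of -0.054, -0.031 and -0.0015, within the -0.13 to 0.091 of arrays with unlike numbers. No pairing by number was seen, but so few pairs cannot exclude one. The replicate block gave 4704 changed features, 1 member that rose, and 7 pathway genes that rose and 11 that fell, and with it Ltbp2 passed at -3.46 (limma adjusted p = 0.0403) while Tgfbr2 and Tgfbi did not (0.0875 and 0.0731). For the 7 pairs of members, normexp, quantile normalization and leaving out any 1 array kept the direction of each difference, and these settings and the pair tests were chosen after seeing the data.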
